A study of Homo sapiens and Mus musculus with 16 samples.

Results

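The 9 genes described here encode factors of nonsense-mediated decay (NMD): UPF1, UPF2, UPF3A, UPF3B, SMG1, SMG8, SMG9, SMG5 and SMG6. They were chosen by symbol, in the human table as listed and in the mouse table ignoring case, and all 9 were found among the 22286 genes of the human table and the 15881 of the mouse table. RNA of P-bodies, cytoplasmic condensates of untranslated RNA and protein, had been sequenced beside RNA of the cytoplasm in 4 cell types, with 2 libraries per fraction and cell type and 16 libraries in all. Particles carrying LSM14A, a P-body protein, fused to GFP were sorted from lysed cells after nuclei had been spun out. The cytoplasm fraction was the material from which they were sorted, so it still held P-bodies. Per the methods of the study, it was the resuspended pellet of a further, faster spin of the lysate. RNA left in the supernatant of that spin was thus not in it, and cytoplasm levels here are levels in that pellet. HEK293T, a human embryonic kidney line, and the mouse embryonic stem (ES) cells labelled KH2 and grown in serum with LIF carried the fusion on a lentiviral construct with the EF1a promoter. The human ES cell line UCLA4 carried it at the AAVS1 locus and was the source of the liver bud progenitors and of the neurons, taken at day 20. All 16 libraries thus came from cells that expressed GFP-LSM14A, and no unmodified cells were part of the comparison. The culture methods of the study describe v6.5 mouse ES cells, and KH2 is listed among its cell line sources. Libraries of HEK293T and mouse ES cells were labelled total RNA and made with random primers, whereas those of liver bud progenitors and neurons were labelled polyA RNA, so library type and cell type cannot be told apart between these pairs of cell types. The study calls its P-body replicates biologically independent samples. The labels do not say whether these were separate cultures or separate sorts, and p-values measure the spread between these libraries.

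NMD removes transcripts on which translation ends too early. UPF1, an RNA helicase, is engaged at the terminating ribosome, and UPF2 and the paralogs UPF3A and UPF3B link it to the exon junction complex, the protein mark left by splicing. The kinase SMG1, held by its partners SMG8 and SMG9, phosphorylates UPF1. Phosphorylated UPF1 is bound by SMG5, an adaptor for decay and dephosphorylation, and by SMG6, the endonuclease that cuts the transcript. NMD proteins are known to pass through P-bodies, but the values here are of the transcripts that encode them and say nothing of where the proteins are.

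The coding sequences of the members differed in base composition, and stretches of UPF1, UPF2, UPF3A, UPF3B, SMG1 and SMG5, picked by hand, are printed for comparison. Each is 90 bases in frame from the middle of the longest coding exon, 5′ to 3′ on the coding strand, with a capital for every G or C at the third position of a codon, the wobble position. They were read from GENCODE 44 transcripts of the human genes, on hg38. UPF1 is at chr19:18832282-18832371 in exon 1 of 24, with 25 of the 30 wobble positions G or C. UPF2 is at chr10:12029089-12029178 on the minus strand in exon 3 of 22, with 11 of 30. UPF3A and UPF3B are at chr13:114301834-114301923 in exon 9 of 10 and at chrX:119837859-119837948 on the minus strand in exon 10 of 11, with 17 and 14 of 30. SMG1 is at chr16:18829475-18829564 on the minus strand in exon 54 of 63, with 10 of 30, and SMG5 at chr1:156266034-156266123 on the minus strand in exon 12 of 22, with 16 of 30.
UPF1: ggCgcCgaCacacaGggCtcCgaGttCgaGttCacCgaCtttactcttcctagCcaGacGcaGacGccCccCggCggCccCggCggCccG
UPF2: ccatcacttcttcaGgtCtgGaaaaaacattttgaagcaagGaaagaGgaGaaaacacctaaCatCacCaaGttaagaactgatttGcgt
UPF3A: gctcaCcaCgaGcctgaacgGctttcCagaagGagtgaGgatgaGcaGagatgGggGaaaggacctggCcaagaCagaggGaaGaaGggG
UPF3B: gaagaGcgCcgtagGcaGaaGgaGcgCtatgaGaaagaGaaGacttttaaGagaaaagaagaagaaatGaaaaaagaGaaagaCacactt
SMG1: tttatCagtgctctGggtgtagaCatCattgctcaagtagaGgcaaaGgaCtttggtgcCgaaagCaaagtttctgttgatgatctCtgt
SMG5: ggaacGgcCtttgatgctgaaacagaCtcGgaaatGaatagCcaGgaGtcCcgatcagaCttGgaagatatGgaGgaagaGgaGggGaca

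Library totals ranged from 6368953 to 17972284 counts, and members had between 34 and 5020 counts per library, above the floor of 3 counts, which was 0.167 to 0.471 CPM (counts scaled to a common library total). Ribosomal RNA genes took 3.09% to 13.4% of counts in P-body libraries and 9.63% to 24.9% in cytoplasm libraries. The libraries labelled polyA RNA had the higher shares, 11.4% to 13.4% in P-bodies and 20.4% to 24.9% in cytoplasm. Those labelled total RNA had 3.09% to 4.755% and 9.63% to 16.6%. The reason was not tested. The sum of 4 nuclear RNAs (MALAT1, NEAT1, RN7SK and KCNQ1OT1; 3 of them listed in mouse) was 2070 to 2200 CPM in HEK293T P-bodies and 8607 to 9715 in cytoplasm, 1909 to 1927 and 3810 to 3887 in liver bud progenitors, 3012 to 3190 and 6668 to 7092 in neurons, and 581 to 586 and 696 to 700.0 in mouse ES cells. In HEK293T the sum was carried by RN7SK, at 1570 and 1679 CPM in P-bodies against 8226 and 9357 in cytoplasm, whereas NEAT1 (183 and 188 against 67.4 and 65.7 CPM) and KCNQ1OT1 were higher in P-bodies and MALAT1 overlapped. NEAT1 was also higher in P-bodies of neurons, at 37.85 and 38.03 against 27.02 and 26.87 CPM. Their part in the members' values was not tested. All 8 neuronal markers were above the floor in neurons, where they summed to 9146 to 11900 CPM. In liver bud progenitors the 8 liver bud markers summed to 190 to 408 CPM with 1 at or under the floor in each fraction, beside 1494 to 2627 CPM for 6 markers of human pluripotent cells and 235 to 237.5 CPM for the neuronal markers. The 6 neural progenitor markers summed to 569 to 1047 CPM in neurons and to 221 to 258 CPM in liver bud progenitors. Their part in the comparison of neurons with liver bud progenitors was not tested. All 8 ES cell markers were above the floor in mouse ES cells, at 2728 to 3179 CPM, and 0 of 6 fibroblast markers were listed. The neuron P-body replicates were the least alike, with a Spearman rho across genes of 0.915 against 0.962 to 0.988 in the other groups.

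P-bodies and cytoplasm held the 9 transcripts in unequal proportion, and the members did not move as a unit. UPF2 and UPF3B were P-body enriched in all 4 cell types, UPF1, SMG1 and SMG5 were depleted in all 4, and UPF3A was enriched in HEK293T and liver bud progenitors but depleted in mouse ES cells (edgeR quasi-likelihood test, Benjamini-Hochberg adjusted p under 0.05 over all genes). In HEK293T 3 members were enriched and 5 depleted, beside 19.3% and 22.8% of all genes. In liver bud progenitors the counts were 3 and 5, beside 21.4% and 17.1%. In neurons 2 were enriched and 5 depleted, beside 14.6% and 14.1%, and in mouse ES cells 2 and 4, beside 25.8% and 20.6%. These shares are over all genes with counts in the libraries compared, among them genes under the floor. The members had at least 34 counts in every library, and the part of count depth in their calls was not tested. The median log2 change of the 9 members, P-body over cytoplasm, was -0.32, -0.45, -0.36 and -0.17 in the same order, and the median of all genes was -0.0072, -0.092, 0.19 and -0.11. Mouse Smg1, though called depleted, lay near the median of all genes in mouse ES cells, at -0.16 with 47.8% of genes lower. These changes are ratios between fractions and not levels per cell. Fewer transcript molecules in the P-bodies of each cell and fewer cells holding them there cannot be told apart in these bulk libraries.

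**Figure D1:**
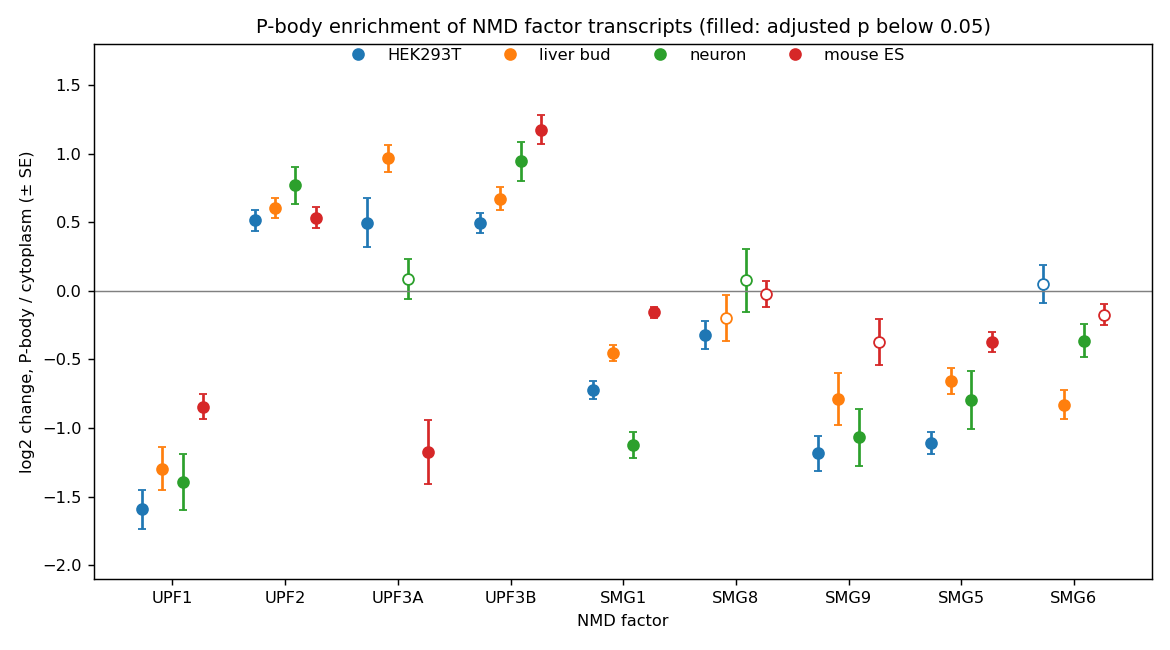
The log2 change of each NMD factor transcript, P-body over cytoplasm, with its SE, in HEK293T, liver bud progenitors, neurons and mouse ES cells, 2 libraries per fraction. Filled points passed adjusted p under 0.05. UPF2 and UPF3B lie above 0 in all 4 cell types, UPF1, SMG1, SMG9 and SMG5 lie below 0 in all 4, and UPF3A lies on both sides.

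UPF1, the helicase at the centre of the pathway (hg38 chr19:18831959-18868230), had the lowest log2 change of the members in each human cell type. In HEK293T it measured 30.9 and 31.9 CPM in the cytoplasm libraries and 11.0 and 9.87 CPM in the P-body libraries, a log2 change of -1.59 ± 0.145 (SE), or 3.02-fold lower in P-bodies (edgeR adjusted p = 9.28e-15). Liver bud progenitor libraries held 29.0 and 37.7 against 13.0 and 14.2 CPM, a change of -1.30 ± 0.157 (edgeR adjusted p = 1.11e-10). In neurons they were 41.3 and 41.6 against 17.3 and 14.2 CPM, a change of -1.39 ± 0.202 (edgeR adjusted p = 0.000162). Every cytoplasm library was above every P-body library of its cell type. Mouse Upf1 (mm10 chr8:70331525-70353278), at 62.1 and 62.4 against 31.9 and 37.5 CPM, fell by 0.84 on the log2 scale (edgeR adjusted p = 4.66e-08), again without overlap. With TMM scaling the depletion in mouse ES cells was nominally smaller than in the human cell types. With library size alone it was -1.25, beside -1.23 in neurons, -1.48 in liver bud progenitors and -1.72 in HEK293T. The difference between mouse and human cells was not tested because species and annotation differ.

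UPF2, the scaffold between UPF1 and the UPF3 proteins (hg38 chr10:11920022-12043170), went the other way. Its libraries read 76.5 and 83.6 CPM in HEK293T cytoplasm and 111 and 118 CPM in P-bodies, a log2 change of 0.52 ± 0.0765 (edgeR adjusted p = 4.21e-08). For liver bud progenitors 96.2 and 103 CPM stood against 149.8 and 153 CPM (0.60 ± 0.0763, edgeR adjusted p = 3.86e-10). In neurons 49.1 and 57.7 CPM stood against 91.8 and 90.3 CPM (0.77 ± 0.135, edgeR adjusted p = 0.000763). P-body libraries were the higher ones in each human cell type, with no overlap. Mouse Upf2 (mm10 chr2:5951469-6056703) was also higher in P-bodies, at 77.6 and 84.0 CPM against 56.7 and 54.9 CPM in cytoplasm (0.53 ± 0.0768, edgeR adjusted p = 2.80e-06). Scaled by library size alone, the mouse change was 0.13 and did not pass (edgeR adjusted p = 0.155). That scaling moved the median of all genes in mouse ES cells from -0.11 to -0.51, and it lowered each mouse member's value by about the same amount.

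The paralogs UPF3A and UPF3B, which compete for UPF2, were both enriched in HEK293T and liver bud progenitors and parted in neurons and mouse ES cells. UPF3B (hg38 chrX:119834022-119852998), the stronger NMD activator of the pair, was P-body enriched throughout. Its cytoplasm libraries held 119 and 106 CPM in HEK293T, 65.2 and 63.0 CPM in liver bud progenitors and 38.9 and 38.1 CPM in neurons. The P-body libraries held 151 and 165, 104 and 101, and 71.7 and 76.5 CPM in the same order. No cell type showed overlap between its fractions. The log2 changes were 0.50 ± 0.0711, 0.67 ± 0.0862 and 0.95 ± 0.143 (edgeR adjusted p = 1.89e-08, 6.00e-10 and 0.000228). In mouse ES cells, Upf3b (mm10 chrX:37091678-37110322) went from 27.4 and 22.8 CPM in cytoplasm to 59.0 and 54.2 CPM in P-bodies, 2.26-fold higher and the highest log2 change of any mouse member (1.17 ± 0.106, edgeR adjusted p = 1.10e-09).

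UPF3A (hg38 chr13:114281601-114305817) was not called the same way in every cell type. Liver bud progenitors held 40.6 and 40.6 CPM in cytoplasm and 78.2 and 80.6 CPM in P-bodies, a log2 change of 0.97 ± 0.0985 (edgeR adjusted p = 2.57e-13). In neurons, with 48.4 and 48.5 CPM in cytoplasm and 50.7 and 52.0 CPM in P-bodies, the change was 0.084 ± 0.147 and did not pass (edgeR adjusted p = 0.698). In HEK293T, where the level was low, 9.56 and 8.26 CPM in cytoplasm stood against 13.0 and 12.2 CPM in P-bodies (0.50 ± 0.179, edgeR adjusted p = 0.0188). The HEK293T libraries did not overlap, but the call was lost when library size alone was used (0.37, edgeR adjusted p = 0.0961), without P-body replicate 1 (0.45, edgeR adjusted p = 0.116) and without cytoplasm replicate 2 (0.41, edgeR adjusted p = 0.131). Mouse Upf3a (mm10 chr8:13785615-13799193) was depleted, with 9.03 and 8.29 CPM in cytoplasm against 3.34 and 4.32 CPM in P-bodies, 2.26-fold lower (-1.18 ± 0.233, edgeR adjusted p = 0.000183). These mouse values rest on 85 and 80 counts in cytoplasm and 34 and 41 counts in P-bodies, the lowest of any member. Human UPF3A has 3 annotated pseudogenes, UPF3AP1, UPF3AP2 and UPF3AP3, that were not listed in the table, and 15.0% of the 150-base windows of its transcript occurred in them letter for letter, so reads from those windows cannot be assigned with certainty.

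**Figure D2:**
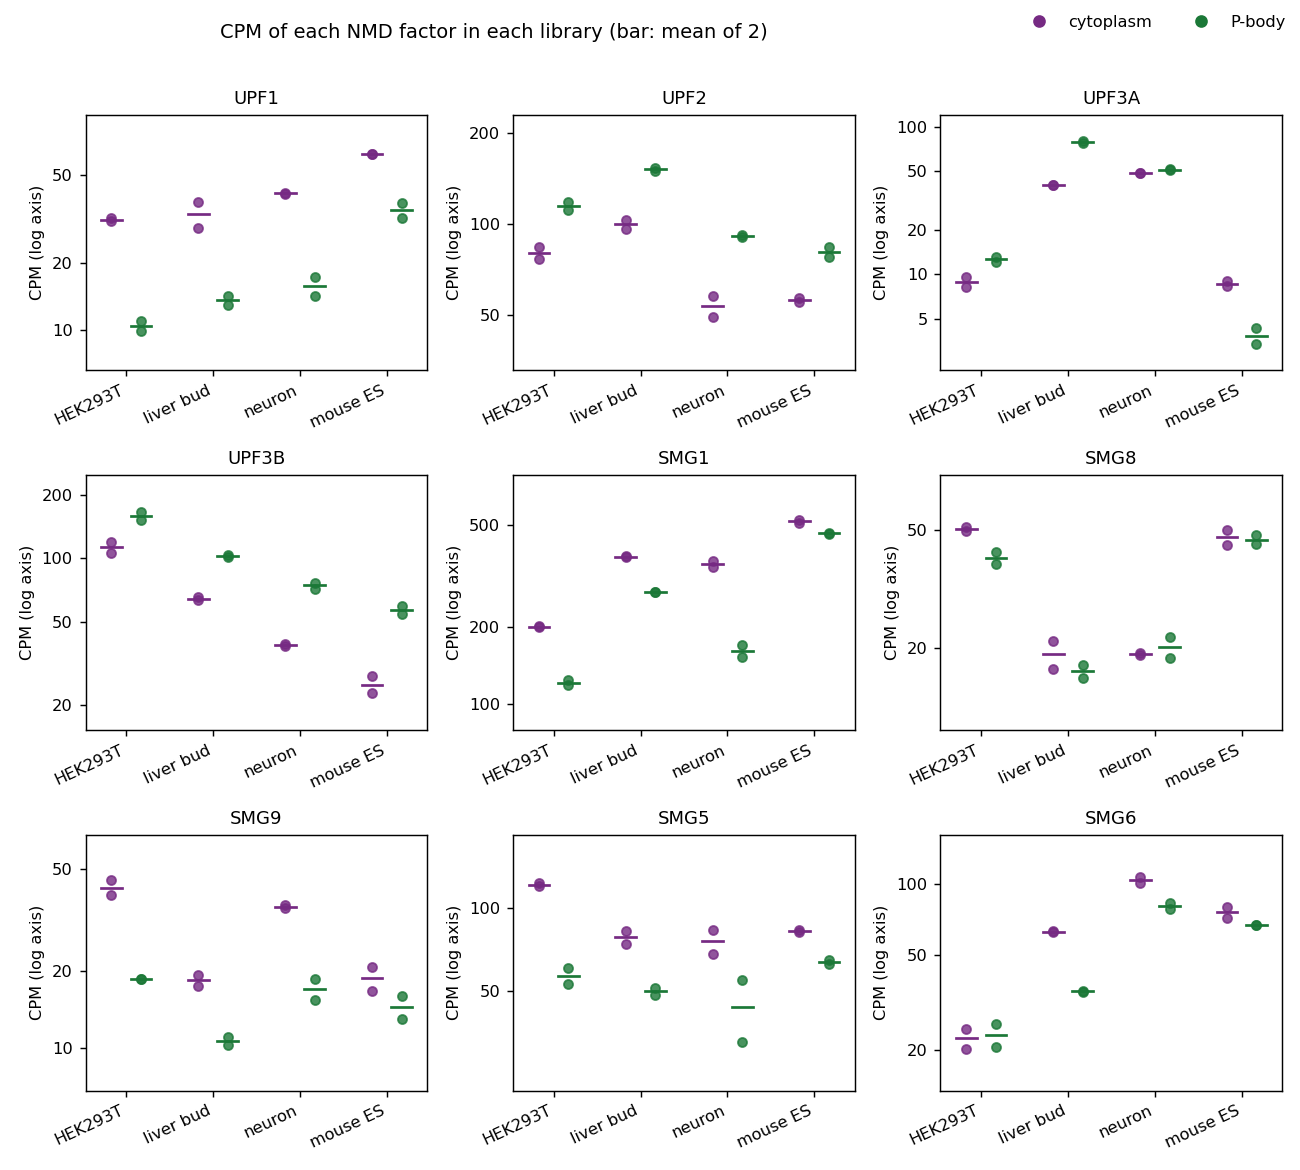
CPM of each NMD factor transcript in every library on a log axis, by cell type, with cytoplasm and P-body libraries side by side and a bar at the mean of 2. UPF1 cytoplasm libraries lie above P-body libraries in all 4 cell types, UPF3B P-body libraries lie above cytoplasm libraries in all 4, and UPF3A changes order in mouse ES cells.

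SMG1, the kinase that phosphorylates UPF1 (hg38 chr16:18804860-18926408), was depleted in each cell type, by unequal amounts. HEK293T libraries read 201 and 199.8 CPM in cytoplasm and 124 and 119 CPM in P-bodies (-0.72 ± 0.0655, edgeR adjusted p = 8.26e-15). Liver bud progenitors read 377 and 374 CPM and 274 and 274 CPM (-0.45 ± 0.0595, edgeR adjusted p = 1.19e-09). Neurons read 343 and 359.9 CPM and 153 and 170.2 CPM (-1.12 ± 0.0945, edgeR adjusted p = 1.46e-06). Cytoplasm and P-body libraries were separate in every case. For mouse Smg1 (mm10 chr7:118131308-118243670) the step was small, from 509 and 520.1 CPM in cytoplasm to 465 and 458 CPM in P-bodies (-0.16 ± 0.0396, edgeR adjusted p = 0.00221), and it did not pass without P-body replicate 2 (-0.12, edgeR adjusted p = 0.0753), while filterByExpr, which leaves out genes of low count, gave -0.24.

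Human SMG1 shares sequence with a family of copies on the same chromosome, of which SMG1P1, SMG1P2, SMG1P3, SMG1P5, SMG1P6 and SMG1P7 were in the table, and the counting could split reads among them. Of the 150-base windows of the SMG1 transcript, 6.34% occurred unchanged in an annotated copy. In the other direction, 6.29% (SMG1P7) to 18.1% (SMG1P6) of the windows of a copy's longest transcript occurred unchanged in SMG1 transcripts. Most windows of each copy were thus not found in SMG1. The copies took 22.7% to 31.1% of the counts of SMG1 and copies together in HEK293T, 17.7% to 28.4% in neurons and 30.6% to 55.8% in liver bud progenitors. Their share was higher in both cytoplasm libraries than in both P-body libraries of each human cell type. All 6 copies were depleted from P-bodies in HEK293T and in liver bud progenitors, and 4 of 6 in neurons. With the copies added to SMG1, the log2 ratio of the mean CPM, P-body over cytoplasm, was -1.29 in neurons, -1.07 in liver bud progenitors and -0.87 in HEK293T, beside -1.12, -0.45 and -0.72 for SMG1 alone. The sum takes in the copies' own transcripts, and how shared reads were divided was not tested.

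SMG8, a subunit that holds SMG1 in check (hg38 chr17:59209400-59215239), was called in 1 cell type. In HEK293T it measured 50.9 and 49.6 CPM in cytoplasm and 42.2 and 38.5 CPM in P-bodies (-0.32 ± 0.101, edgeR adjusted p = 0.00698), a step that did not pass with DESeq2 (-0.23, adjusted p = 0.134), with its size factors in edgeR (-0.23, adjusted p = 0.0668), with all 12 human libraries in a single fit (-0.19, adjusted p = 0.368), or without P-body replicate 2 (-0.25, edgeR adjusted p = 0.128) or cytoplasm replicate 1 (-0.27, edgeR adjusted p = 0.0761). In liver bud progenitors 17.1 and 21.2 CPM in cytoplasm overlapped 15.9 and 17.6 CPM in P-bodies, and in neurons 19.4 and 19.0 CPM overlapped 21.8 and 18.6 CPM. The changes were -0.20 ± 0.170 and 0.075 ± 0.229 (edgeR adjusted p = 0.407 and 0.832). Mouse Smg8 (mm10 chr11:87077732-87086774) read 44.4 and 49.8 CPM in cytoplasm and 48.0 and 44.7 CPM in P-bodies, which overlapped as well (-0.023 ± 0.0928, edgeR adjusted p = 0.856). SMG9, the partner that joins SMG8 to the kinase (hg38 chr19:43727983-43754962), was depleted in the human cells. It went from 39.3 and 45.0 CPM in cytoplasm to 18.5 and 18.5 CPM in P-bodies of HEK293T (-1.19 ± 0.124, edgeR adjusted p = 1.69e-12). In liver bud progenitors it went from 19.2 and 17.5 CPM to 10.2 and 11.0 CPM (-0.79 ± 0.191, edgeR adjusted p = 0.000434). In neurons it went from 36.0 and 35.0 CPM to 18.5 and 15.3 CPM (-1.07 ± 0.208, edgeR adjusted p = 0.00161). The fractions were apart in all 3 human cell types. Mouse Smg9 (mm10 chr7:24399619-24422778) was lower in both P-body libraries, at 12.9 and 15.9 CPM against 20.7 and 16.6 CPM in cytoplasm, but did not pass (-0.37 ± 0.165, edgeR adjusted p = 0.0685). It passed with library size alone (-0.78, edgeR adjusted p = 0.000210), without cytoplasm replicate 2 (-0.53, edgeR adjusted p = 0.0237, the values on leaving out a library running from -0.53 to -0.20) and with filterByExpr (-0.46, edgeR adjusted p = 0.0194).

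SMG5, the adaptor that binds phosphorylated UPF1 (hg38 chr1:156249224-156282825), was depleted in all 4 cell types. HEK293T libraries read 121 and 123 CPM in cytoplasm and 60.4 and 52.8 CPM in P-bodies (-1.11 ± 0.0804, edgeR adjusted p = 1.31e-18). Liver bud progenitors read 74.2 and 82.5 CPM and 48.3 and 51.2 CPM (-0.66 ± 0.0956, edgeR adjusted p = 2.23e-08). Neurons read 83.6 and 67.8 CPM and 54.8 and 32.5 CPM (-0.80 ± 0.211, edgeR adjusted p = 0.0124). Fractions were separate in each, although the neuron P-body replicates lay far apart, and the neuron change was -1.22 without P-body replicate 1 and -0.47 without P-body replicate 2, passing in both cases (edgeR adjusted p = 4.89e-07 and 0.0148). Mouse Smg5 (mm10 chr3:88336260-88362338), at 81.7 and 83.2 CPM in cytoplasm and 62.4 and 65.0 CPM in P-bodies, was depleted by a smaller step (-0.37 ± 0.0727, edgeR adjusted p = 0.000152).

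SMG6, the endonuclease (hg38 chr17:2059839-2303785), was depleted in liver bud progenitors and neurons and not called in HEK293T. In HEK293T its libraries overlapped, at 24.5 and 20.3 CPM in cytoplasm and 25.8 and 20.7 CPM in P-bodies (0.047 ± 0.139, edgeR adjusted p = 0.848). In liver bud progenitors they did not, at 62.5 and 63.1 CPM against 35.2 and 35.4 CPM (-0.83 ± 0.106, edgeR adjusted p = 4.73e-10). In neurons 101 and 106 CPM stood against 82.6 and 78.4 CPM (-0.36 ± 0.117, edgeR adjusted p = 0.0346). That neuron call was lost with DESeq2 (-0.31, adjusted p = 0.117), and under 3 further settings and 2 omissions of a cytoplasm library the adjusted p ran up to 0.276. Mouse Smg6 (mm10 chr11:74925823-75164448) was lower in both P-body libraries, at 67.3 and 67.0 CPM against 79.6 and 72.0 CPM, and did not pass (-0.17 ± 0.0758, edgeR adjusted p = 0.0629), though it did with filterByExpr (-0.26, edgeR adjusted p = 0.00477), with library size alone (-0.58, edgeR adjusted p = 1.90e-07) and without cytoplasm replicate 2 (-0.25, edgeR adjusted p = 0.0210), while leaving out other libraries gave values up to -0.10.

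Ratios of the counts of a pair of members within 1 library need no scaling between libraries and show how far the make-up of the set differed between fractions. UPF2 had 2.47 and 2.62 counts per UPF1 count in the HEK293T cytoplasm libraries and 10.1 and 11.9 in the P-body libraries. The same ratio was 3.32 and 2.73 against 11.5 and 10.8 in liver bud progenitors, 1.19 and 1.39 against 5.30 and 6.34 in neurons and 0.914 and 0.880 against 2.44 and 2.24 in mouse ES cells. It was thus higher in every P-body library than in every cytoplasm library of the same cells. UPF3B to UPF1 followed, from 3.85 and 3.31 in cytoplasm to 13.8 and 16.8 in P-bodies of HEK293T and from 0.442 and 0.365 to 1.85 and 1.44 in mouse ES cells. UPF3A to UPF3B was 0.0802 and 0.0782 in cytoplasm and 0.0861 and 0.0737 in P-bodies of HEK293T, which overlapped. It rose in P-bodies of liver bud progenitors, from 0.623 and 0.645 to 0.755 and 0.800, and was lower there in neurons, at 0.708 and 0.680 against 1.25 and 1.27, and in mouse ES cells, at 0.0567 and 0.0798 against 0.330 and 0.364. The balance of the paralogs in P-bodies was therefore tilted towards UPF3B in neurons and mouse ES cells and towards UPF3A in liver bud progenitors, relative to the cytoplasm of the same cells. SMG8 to SMG9, partners in the SMG1 complex, was higher in both P-body libraries than in both cytoplasm libraries of each human cell type, for example 1.18 and 1.21 against 0.538 and 0.543 in neurons, and overlapped in mouse ES cells. SMG6 to SMG5 was higher in HEK293T P-bodies, at 0.427 and 0.392 against 0.203 and 0.166, and lower in P-bodies of liver bud progenitors, at 0.729 and 0.692 against 0.842 and 0.765.

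**Figure D3:**
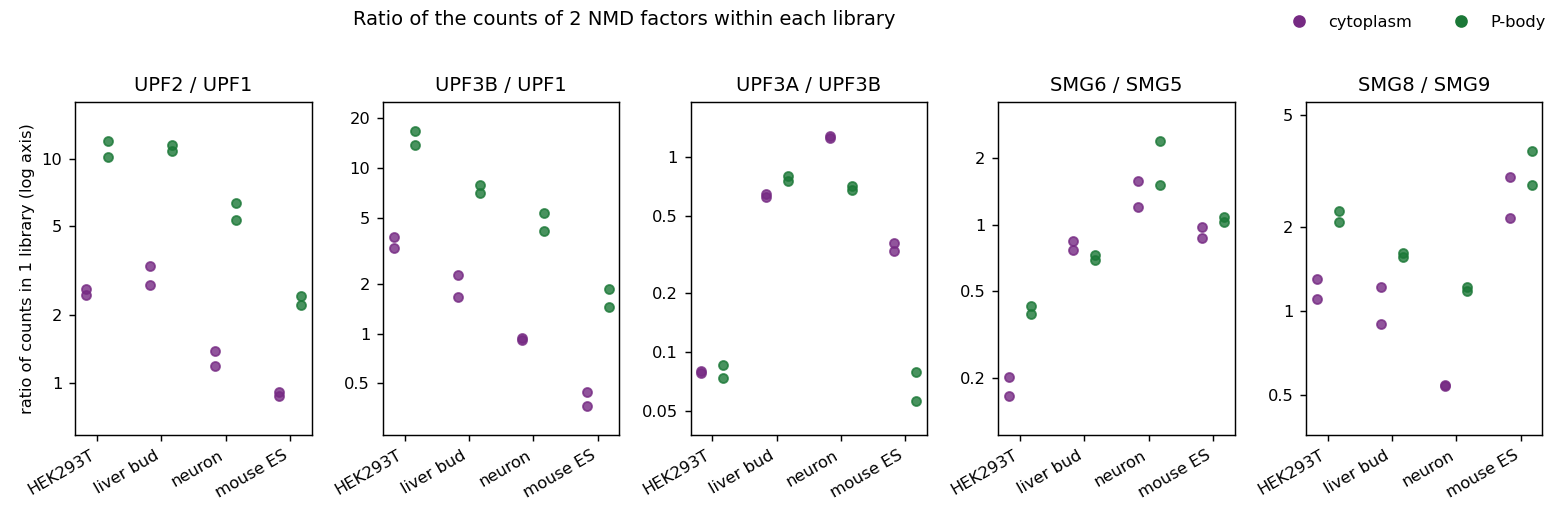
Ratio of the counts of 2 members in each library on a log axis, for UPF2 to UPF1, UPF3B to UPF1, UPF3A to UPF3B, SMG6 to SMG5 and SMG8 to SMG9, by cell type and fraction. UPF2 to UPF1 is 0.880 to 3.32 in cytoplasm libraries and 2.24 to 11.9 in P-body libraries, while UPF3A to UPF3B is lower in P-bodies than in cytoplasm of neurons and mouse ES cells.

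Liver bud progenitors and neurons came from the same line with the same library label, so they were compared with each other in a fit of their 8 libraries. In cytoplasm, the core factors UPF2 and UPF3B were higher in liver bud progenitors, and UPF3A, SMG9 and SMG6 were higher in neurons. Thus 3 members were higher in neurons, beside 19.2% of all genes, and 2 in liver bud progenitors, beside 23.7%. The log2 difference, neuron minus liver bud progenitor, was -0.82 ± 0.105 for UPF2 (edgeR adjusted p = 7.95e-06) and -0.66 ± 0.110 for UPF3B (edgeR adjusted p = 0.000125). It was 1.03 ± 0.193 for SMG9 (edgeR adjusted p = 0.000338) and 0.80 ± 0.106 for SMG6 (edgeR adjusted p = 1.15e-05). The paralogs thus stood in opposite order, since UPF3A was higher in neurons by 0.34 ± 0.119 (edgeR adjusted p = 0.0328). That last call did not pass with library size alone (0.081, edgeR adjusted p = 0.651), nor with the replicate block (0.35, edgeR adjusted p = 0.0827), nor when any liver bud progenitor library was left out (adjusted p from 0.0590 to 0.132). UPF1 differed by 0.39 ± 0.180 and did not pass (edgeR adjusted p = 0.0995), but did with ribosomal RNA genes left out (0.52, edgeR adjusted p = 0.0294), with all 12 human libraries in a single fit (0.47, edgeR adjusted p = 0.0232), with the replicate block (0.61, edgeR adjusted p = 0.0318) and without either neuron P-body library (0.46, edgeR adjusted p = 0.00539 and 0.00530). It was lowest without liver bud progenitor cytoplasm replicate 1, at 0.22, and highest without replicate 2 of that group, at 0.59. SMG1, SMG8 and SMG5 differed by -0.017 ± 0.0734, 0.076 ± 0.206 and 0.029 ± 0.187 (edgeR adjusted p = 0.898, 0.817 and 0.934). With library size alone SMG1 was lower in neurons (-0.27, edgeR adjusted p = 0.0181). The median difference was 0.076 over the members and -0.24 over all genes.

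The P-body enrichment itself differed between these cell types for UPF3A and SMG1. UPF3A enrichment was lower in neurons by 0.89 on the log2 scale (-0.89 ± 0.165, interaction term, edgeR adjusted p = 0.00140), and by 0.53 with library size alone (edgeR adjusted p = 0.0422). SMG1 was further depleted in neurons, with an interaction of -0.68 ± 0.105 (edgeR adjusted p = 0.000320). With library size alone this SMG1 term was -0.32 and did not pass (edgeR adjusted p = 0.0858), under a scaling that moved the median of all genes from 0.23 to 0.58. With its copies added, the SMG1 ratios of -1.29 in neurons and -1.07 in liver bud progenitors lay closer together than those of SMG1 alone, and their difference was not tested. SMG6 was less depleted in neurons, 0.46 ± 0.152 (edgeR adjusted p = 0.0489), a call lost on leaving out any 1 of the 8 libraries (adjusted p from 0.0734 to 0.229) and with DESeq2 (0.50, adjusted p = 0.0736), and raised to 0.82 with library size alone. This made 1 member more enriched in neurons, beside 9.21% of all genes, and 2 more enriched in liver bud progenitors, beside 8.5%. The interaction of the remaining members was -0.11 ± 0.268 for UPF1, 0.16 ± 0.146 for UPF2, 0.26 ± 0.151 for UPF3B, 0.26 ± 0.291 for SMG8, -0.29 ± 0.280 for SMG9 and -0.15 ± 0.269 for SMG5, with edgeR adjusted p from 0.256 to 0.838. For SMG5 the 2 neuron P-body libraries decided the value, which was -0.67 without replicate 1 (edgeR adjusted p = 0.00388) and 0.061 without replicate 2.

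**Figure D4:**
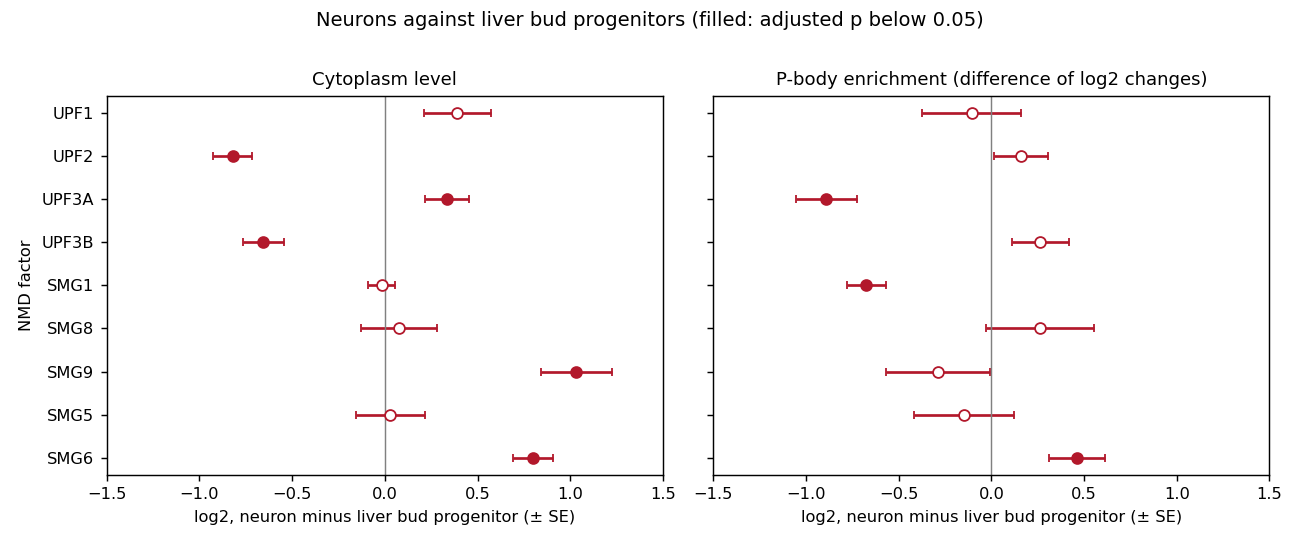
Differences between neurons and liver bud progenitors for each NMD factor, as log2 values with SE, in the cytoplasm level and in the P-body enrichment, from a fit of 8 libraries. UPF2 and UPF3B lie below 0 in cytoplasm and SMG9 and SMG6 above, while UPF3A and SMG1 lie below 0 for P-body enrichment.

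Divided by the length of the annotated transcript, the levels of the members could be set in order within a cell type. In HEK293T cytoplasm UPF3B stood first at 48.0 ± 4.13 CPM per kb (SD, n = 2), then SMG5 at 26.7 ± 0.347, SMG8 at 15.6 ± 0.289 and UPF2 at 15.5 ± 0.971, SMG1 at 12.5 ± 0.0585, SMG9 at 7.68 ± 0.739, UPF1 at 5.91 ± 0.131, and UPF3A and SMG6 last at 3.76 ± 0.389 and 3.75 ± 0.493. SMG8 and UPF2, and UPF3A and SMG6, did not differ beyond their spread. In neuron cytoplasm SMG1 stood first at 21.9 ± 0.748, then UPF3A at 20.5 ± 0.0157, SMG6 at 17.3 ± 0.701, SMG5 at 16.6 ± 2.45, UPF3B at 16.4 ± 0.244, UPF2 at 10.3 ± 1.18, UPF1 at 7.79 ± 0.0439, SMG9 at 6.46 ± 0.126 and SMG8 at 5.95 ± 0.0790, with SMG6, SMG5 and UPF3B within their spread. Liver bud progenitor cytoplasm ran from UPF3B at 27.4 ± 0.654 and SMG1 at 23.4 ± 0.161 through UPF2 at 19.2 ± 0.891, SMG5 at 17.2 ± 1.28, UPF3A at 17.1 ± 0.0130 and SMG6 at 10.5 ± 0.0704 to UPF1 at 6.27 ± 1.16, SMG8 at 5.96 ± 0.904 and SMG9 at 3.34 ± 0.222. There SMG5 and UPF3A, and UPF1 and SMG8, lay within their spread. In mouse ES cells Smg1 led at 33.1 ± 0.488 and Upf3a was last at 4.21 ± 0.256, and Upf2 at 10.8 ± 0.251 and Upf3b at 10.7 ± 1.40 did not differ beyond their spread. UPF3A thus ranged from the foot of the order in HEK293T and mouse ES cells to the second place in neurons, a range set across library types. Human SMG1 was taken without its copies and human UPF3A without its unlisted pseudogenes, so the places of both are uncertain. In liver bud progenitor cytoplasm the copies took 55.8% and 54.1% of the counts of SMG1 and copies together. UPF1, the factor on which the others act, was in the lower part of the order in all 3 human cell types.

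Base composition, which the choice of members did not use, ran against the P-body ratio. UPF1 had the highest share of G or C at wobble positions, 80.4%, and UPF2 the lowest, 38.5%, followed by UPF3B at 40.1% and SMG1 at 40.9%. SMG8 was at 42.9%, UPF3A at 54.5%, SMG6 at 59.9%, SMG5 at 65.0% and SMG9 at 66.6%. Across the 9 members, Spearman's rho between this share and the log2 change was -0.80 for HEK293T, -0.75 for liver bud progenitors, -0.72 for neurons and -0.90 for mouse ES cells. With transcript length, rho over the members was -0.43, -0.70, -0.72 and 0.32 in the same order, of like size for liver bud progenitors and neurons, beside 0.21, -0.040, 0.030 and 0.10 over all coding genes. Over all coding genes tested, of which 98.7% of human and all mouse genes had an annotated transcript here, rho between transcript GC content and the log2 change was -0.39, -0.45, -0.36 and -0.28 in that order, and over the members it was -0.72, -0.75, -0.67 and -0.87. SMG1 stood apart, being low in GC and depleted in all 3 human cell types. Mouse Upf3a, depleted in P-bodies, had 65.7% G or C at wobble positions against 54.5% in human UPF3A. Its log2 change lay below that of each human cell type. SMG1, SMG9 and UPF3B (41.4% against 40.1%) also had a higher share in mouse, but a log2 change above each human one. UPF1 and SMG5 had a lower share in mouse and a change above each human one. The change of UPF2, SMG8 and SMG6 lay within the human range, although the SMG8 share was 52.5% in mouse against 42.9%. The relation between the species was not tested. In the printed stretches UPF1 carries capitals at most wobble positions, and UPF2 and SMG1 at few. UPF3B, SMG5 and UPF3A lie between, with 14, 16 and 17 of 30. In these stretches UPF3A thus has more than SMG5, although SMG5 had the lower log2 change in each human cell type. Over the whole coding sequence their order is reversed, at 65.0% for SMG5 and 54.5% for UPF3A. These relations are across genes measured in the same libraries, which are not independent replicates, and they are given as a description.

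**Figure D5:**
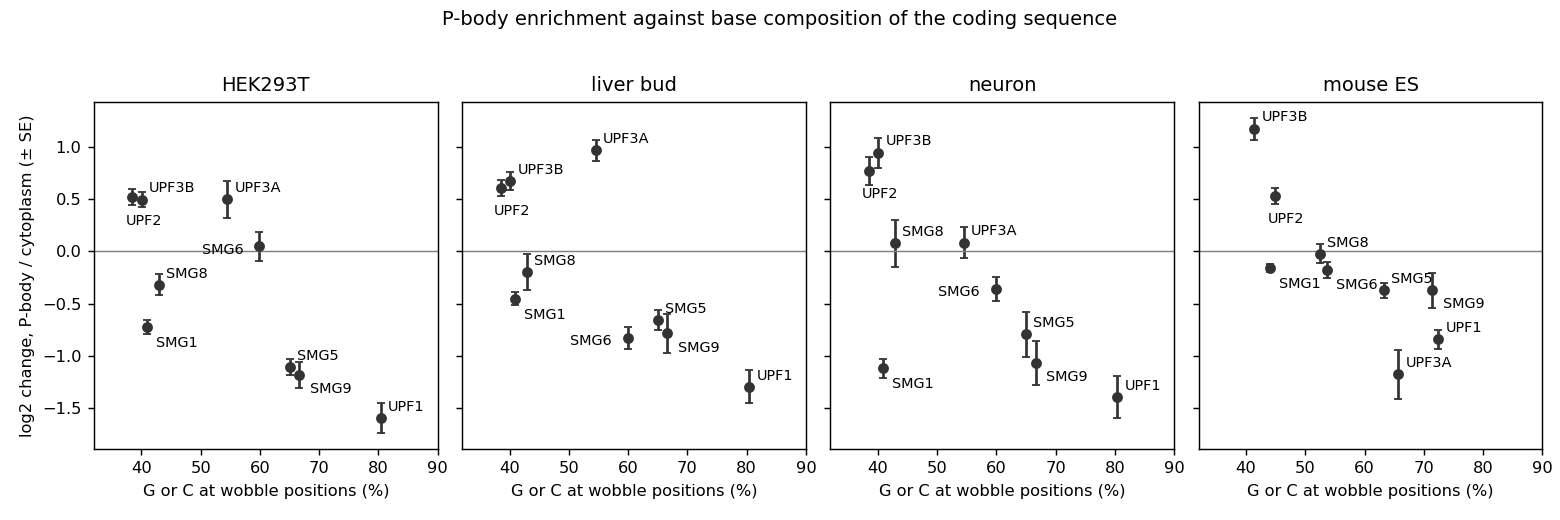
The log2 change of each member, P-body over cytoplasm, with its SE, against the share of G or C at wobble positions of its coding sequence, for the 4 cell types. UPF1, at 80.4% in human, lies lowest in the human cell types, UPF2 and UPF3B, near 40%, lie above 0, and SMG1 lies below 0 at a low share.

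Other genes of the pathway, in 3 lists, were read from the same fits. Their counts stand beside the shares of all genes enriched and depleted, which were 19.3% and 22.8% in HEK293T, 21.4% and 17.1% in liver bud progenitors, 14.6% and 14.1% in neurons and 25.8% and 20.6% in mouse ES cells, and several lie near those shares. Of 9 other NMD and termination factors, 4 were enriched and 4 depleted in HEK293T, 3 and 2 in liver bud progenitors, 2 and 3 in neurons, and 3 and 2 in mouse ES cells. ETF1, the release factor that reads the stop codon, was enriched in all 4, by 0.52 ± 0.0606, 1.26 ± 0.0781, 1.31 ± 0.177 and 0.52 ± 0.0558 on the log2 scale in the order HEK293T, liver bud progenitors, neurons and mouse ES cells. So was PNRC2, which links UPF1 to decapping, by 0.62 ± 0.0637, 1.43 ± 0.0707, 1.60 ± 0.165 and 1.67 ± 0.0494. The median of the list was 0.070, -0.018, 0.15 and -0.078. Of 9 exon junction complex genes, 1 was enriched and 6 depleted in HEK293T, 2 and 3 in liver bud progenitors, 0 and 2 in neurons, and 2 and 3 in mouse ES cells, with a median of -0.42, -0.055, -0.28 and -0.20. CASC3, a core subunit, was depleted in all 4 (-0.52 ± 0.0716, -0.52 ± 0.0717, -0.76 ± 0.0959 and -0.20 ± 0.0617). Others of that complex were called in opposite directions. RBM8A, a core subunit, changed by 0.41 ± 0.101 in liver bud progenitors, -0.89 ± 0.0737 in HEK293T and -0.54 ± 0.117 in mouse ES cells. The peripheral subunits ACIN1 and SAP18 changed by -0.95 ± 0.0771 and 0.87 ± 0.145 in liver bud progenitors and by 0.48 ± 0.0637 and -0.42 ± 0.119 in HEK293T. In mouse ES cells these subunits changed by -0.30 ± 0.0507 and 0.65 ± 0.171, the same directions as in liver bud progenitors. RNPS1, of the same group, changed by -0.31 ± 0.0610 in HEK293T, -0.78 ± 0.114 in neurons and 0.39 ± 0.0537 in mouse ES cells.

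Of 8 transcripts known as NMD targets, 0 were enriched and 4 depleted in HEK293T, 1 and 0 in liver bud progenitors, 0 and 1 in neurons, and 1 and 4 in mouse ES cells. The medians were -0.44, 0.10, -0.42 and -0.26. GAS5, a non-coding host of small nucleolar RNAs that is degraded by NMD when translated, was depleted in HEK293T (-0.97 ± 0.0952) and mouse ES cells (-0.74 ± 0.0980) and enriched in liver bud progenitors (1.39 ± 0.123). In the cytoplasm comparison, 5 of the 8 were lower in neurons than in liver bud progenitors and 0 were higher, beside 23.7% and 19.2% of all genes, with a median of -1.10 beside -0.24 for all genes. Most of the 5 were low. ATF3, DDIT3, GADD45A and GADD45B had 2.5, 1.9, 1.4 and 0.74 CPM in neurons against 6.7, 5.3, 3.4 and 3.0 CPM. GAS5 had 11.4 against 21.0 CPM. ATF4, the highest of the list at 111 against 132 CPM, did not pass (-0.25, edgeR adjusted p = 0.0525). Of the other NMD and termination factors 1 was higher and 3 lower in neurons, and of the exon junction complex 5 were higher and 1 lower.

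The human genes that followed each member most closely over the 12 human libraries were named by the highest Pearson r of log2 CPM among 6921 genes. These were MICALL1 for UPF1 (r = 0.989), PDS5A for UPF2 (0.991), PPP2R3A for UPF3A (0.994), LIN54 for UPF3B (0.995), PTPRF for SMG1 (0.963), HSPA1B for SMG8 (0.981), CKB for SMG9 (0.980), ATG7 for SMG5 (0.972) and GRIPAP1 for SMG6 (0.989). HSPA1B has a near-identical paralog, HSPA1A, so its own values are uncertain. Of the 36 pairs of members, 6 had an r above 0.8 in size. UPF3A ran against SMG8 (r = -0.97), UPF3B against SMG6 (-0.89) and SMG1 (-0.81), and UPF2 against UPF1 (-0.85) and SMG9 (-0.85), while SMG9 and SMG5 ran together (0.80). The 12 libraries share cell types, fractions and library types, and the values carry no test.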

How the data were processed

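The authors deposited read counts per gene symbol, with 22286 human and 15881 mouse genes. Per the methods of the study, snapTotal-seq reads were aligned to hg38 or mm10 with refGene annotation in the nf-core pipeline and counted with salmon, and Smart-seq reads were aligned with hisat2 and counted with featureCounts. The table does not say which counter made the columns labelled polyA RNA. Salmon divides reads among similar transcripts, which bears on SMG1 and UPF3A. Genes with under 10 reads in total had been removed, and the smallest total here was 10. The deposited tables of the authors' own DESeq2 comparisons, with fold changes and p-values per cell type, were not used. The submitters' processing notes name DESeq2, hg38 and mm10.

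Groups came from the labels. Fractions were compared on the 4 libraries of a cell type, and neurons with liver bud progenitors on 8, with glmQLFTest, the two-sided quasi-likelihood test, in edgeR 4.0.16 (R 4.3.3), with TMM scaling and no covariate. Genes without counts in the libraries compared were left out, and a Benjamini-Hochberg adjusted p under 0.05 over all genes, with no minimum fold, made a call. SE is the size of the log2 change divided by the square root of the F statistic. CPM used TMM-scaled totals within a cell type. Floors cover counting error only, because amplified reads that carry no molecular identifier are not separate molecules. Replicate counts differed by a chi-square of 2.15 to 24.8 per gene, above sampling noise, so all 16 were kept as separate libraries. The code was tested on simulated counts.

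The members, lists, markers and tests were chosen with earlier results of these data known. All 9 members were named in each comparison. List genes were named where called in all 4 cell types or in opposite directions, and most-alike genes needed a mean of 20 CPM, with a prior count of 2. Alternatives were DESeq2 1.42.0, its RLE size factors in edgeR, library size only, filterByExpr, ribosomal RNA genes left out, the replicate block, a single fit of the 12 human libraries, and leaving out each library. Lengths, coordinates and base composition came from the MANE Select transcript of GENCODE 44 or the longest best-ranked APPRIS principal transcript of GENCODE M21. Protein sequences were not used here.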

Additional observations from a re-analysis of the deposited data

Results flagged for a closer look

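The P-body enrichment of 3 members differed between neurons and liver bud progenitors by the interaction test of edgeR. The log2 difference, neuron minus liver bud progenitor, was -0.89 for UPF3A, -0.68 for SMG1 and 0.46 for SMG6. UPF3A was the only one of these called under each alternative and with each library left out. SMG1 was not called with library size only, and how reads were divided between it and its copies was not tested. The counts of the copies made up 30.6% to 55.8% of the family in liver bud progenitors and 17.7% to 28.4% in neurons. SMG6 was not called when any library was left out.

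UPF3A also lay on opposite sides in human and mouse cells, with both P-body libraries above both cytoplasm libraries in each human cell type and both below in mouse ES cells. Its log2 change was higher than in mouse ES cells by 1.68 in HEK293T, by 2.15 in liver bud progenitors and by 1.26 in neurons, and these differences were not tested. In neurons the change on its own did not pass its test, and it was -0.026 when the 12 human libraries were fitted jointly, the same side as in mouse. Species, cell type and, for liver bud progenitors and neurons, library type cannot be told apart in them.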

How the results depend on the processing

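With library size only in place of TMM, the median log2 change of all genes was -0.51 for mouse ES cells, -0.13 for HEK293T, -0.28 for liver bud progenitors, 0.35 for neurons, 0.58 for the interaction and -0.49 for the cytoplasm comparison. The counts that moved by over 1.5 times were then, in mouse ES cells, 1 member enriched and 7 depleted, and 2591 and 6609 of all genes, against 4104 and 3271 with TMM. In the interaction 3 members were more enriched in neurons and 1 was so in liver bud progenitors, with 3520 and 940 of all genes, against 2050 and 1892. DESeq2 called 1803 mouse genes depleted, and the fit of all 12 human libraries called 4936 depleted in neurons against 3123. The number of members more enriched in neurons was 0 with DESeq2, with ribosomal RNA genes left out and with all 12 human libraries in a single fit, since SMG6 was not called there. Scaling CPM by the whole library moved 47 of 72 mean levels by more than 1 SD of the replicates, by a ratio of 0.87 to 1.15.

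Leaving out 1 library assumes that the lone library varies like the other group. Members enriched and depleted numbered 2 to 3 and 4 to 5 for HEK293T, 3 and 5 throughout for liver bud progenitors, 2 and 4 to 5 for neurons, and 2 and 3 to 6 for mouse ES cells. For the interaction they were 0 for neurons and 2 to 3 for liver bud progenitors, and in cytoplasm 2 to 4 higher in neurons and 2 in liver bud progenitors. Of all genes, 3798 to 4206 were enriched and 4413 to 4588 depleted in HEK293T, 2109 to 4394 and 1892 to 4433 in neurons, 4055 to 4351 and 3079 to 3330 in liver bud progenitors, and 3697 to 3913 and 2624 to 2710 in mouse ES cells. The interaction gave 1193 to 2772 in favour of neurons and 1160 to 3628 in favour of liver bud progenitors, and the cytoplasm 3371 to 5357 and 4099 to 5951.

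Direction changed in values that were not called with TMM and all libraries. With library size only these were HEK293T SMG6 (-0.082), the interaction of UPF1 (0.25), SMG9 (0.069) and SMG5 (0.21), and the cytoplasm difference of SMG8 (-0.18) and SMG5 (-0.23). With filterByExpr it was the interaction of UPF1 (0.039). A single fit of the 12 human libraries gave -0.026 for neuron UPF3A, -0.037 for neuron SMG8 and 0.063 for cytoplasm SMG1. Cytoplasm SMG1 was also 0.024 with DESeq2 and with RLE size factors and 0.11 without ribosomal RNA genes. On leaving out a library, the log2 change ran from -0.12 to 0.22 for HEK293T SMG6, from -0.045 to 0.19 for neuron SMG8 and from -0.10 to 0.062 for mouse Smg8. The interaction ran from -0.35 to 0.065 for UPF1, from -0.022 to 0.20 for UPF2 and from -0.67 to 0.061 for SMG5. The cytoplasm difference ran from -0.027 to 0.084 for SMG1, from -0.065 to 0.24 for SMG8 and from -0.064 to 0.27 for SMG5. The cause was not tested.

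The labels give the groups the same replicate numbers, but nothing says that a number marks a shared culture, and with 2 pairs per cell type the same-numbered deviations correlated at -0.00578 for HEK293T, -0.0219 for liver bud progenitors, -0.0160 for neurons and 0.0606 for mouse ES cells. With the replicate block, 52 of 54 member results kept their direction and call, cytoplasm UPF1 was called (0.61, edgeR adjusted p = 0.0318) and cytoplasm UPF3A was not (0.35, edgeR adjusted p = 0.0827). The lowest member count was 34, in mouse Upf3a, whose SE of 0.233 was the largest among the mouse members.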
